A study of Mus musculus with 139 samples.

Results

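Respiratory complex I is the entry point of the mitochondrial electron transport chain. It takes electrons from NADH, passes them along iron-sulfur clusters to ubiquinone, and pumps protons across the inner membrane. It is built from core subunits that carry out catalysis and from accessory subunits that surround them, and it is L-shaped, with a peripheral arm in the matrix and a membrane arm. Hair cells, the sensory cells of the inner ear, depend on mitochondria for ATP and for calcium handling. The nuclear genes of the complex were taken as every protein-coding gene in the count table whose symbol is Ndufa, Ndufb, Ndufc, Ndufs or Ndufv followed by a number, or Ndufab1. The rule found 37 genes of 55335 in the table.

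The study measured RNA in single hair cells of the mouse cochlea at postnatal days 14 to 16, and 139 cells were analysed. Labels give each cell as an inner hair cell (IHC, the cell type that signals to the auditory nerve) or an outer hair cell (OHC, the cell type that amplifies sound), from the apex, middle or base of the cochlea, which respond to low, intermediate and high frequencies. There were 34 apical, 34 middle and 19 basal IHCs, and 21 apical, 23 middle and 8 basal OHCs. No label gives a strain, genotype or treatment, and none names an animal, so each of the 6 groups was treated as 1 sample and no test between groups was possible. Cell titles carry numbers that fall into a series above 100 (58 cells) and a series up to 100 (81 cells), whose meaning the labels do not give. They are called the higher-numbered and lower-numbered series below, and values are given in each.

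Group levels are counts summed over the cells of a group and scaled to counts per 1000000 by the trimmed mean of M-values (TMM CPM). Levels of single cells are counts per 1000000 of that cell's own total (CPM). Differences are log2 ratios of group levels after adding 1 CPM, and a difference is counted where it reaches 2-fold. All 37 genes reached 5 CPM in at least 1 group, as did 15016 genes of the table. Confidence intervals are exact 95% Poisson intervals and cover counting error only, which is far smaller than the spread between cells.

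Total counts per cell ran from 71027 to 13576942. No 2 cells held identical values. Markers followed the labels in part: the 8 IHC markers summed to between 6875 and 10385 TMM CPM in the IHC groups and to between 8.96 and 363 in the OHC groups, and the 9 OHC markers summed to between 5453 and 8938 in OHCs and to between 121 and 753 in IHCs. Single cells did not all follow their label. In apical IHCs the IHC markers ran from 9.35 to 29123 CPM with a median of 7430. Replicate 8 had the lowest value, with 5634 CPM of OHC markers. In middle OHCs the OHC markers ran from 18.1 (replicate 23) to 13407 CPM (replicate 20), both lower-numbered cells. Higher-numbered middle OHCs ran from 1874 (replicate 1) to 12758 (replicate 7). In single basal OHCs the OHC markers ran from 4.05 to 11821 CPM (replicate 3), with a median of 406. Basal OHCs stood apart. Their level of Ocm, a calcium buffer of OHCs, was 4413 TMM CPM, but that of Slc26a5, the OHC motor protein, was 34.3 against 697 in apical OHCs, and that of Myo7a, a myosin of all hair cells, was 1.10 against 72.6. Markers of blood and immune cells summed to 19529 TMM CPM in basal OHCs and to between 405 and 3421 in the other groups. Markers of mesenchyme and bone summed to 20296 against between 453 and 4738, and those of neurons and glia to 12998 against between 1853 and 3879. Results that rest on basal OHCs are therefore given beside results from the other groups, and the part of other cells' RNA in them was not tested. Supporting cell markers summed to 2717, 2425 and 1522 TMM CPM in apical, middle and basal IHCs, and to 320, 873 and 1930 in OHCs. Averaged over the regions, 9 of 10 were at least 2-fold lower in OHCs, against 39.3% of all genes. Their part in the comparison of OHCs with IHCs was not tested.

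The 37 genes comprise 7 core subunits, 9 accessory subunits of the peripheral arm, 19 accessory subunits of the membrane arm, Ndufab1 and Ndufa4. The core subunits described below are Ndufv1, Ndufv2, Ndufs1, Ndufs3, Ndufs7 and Ndufs8. Accessory subunits of the peripheral arm are Ndufa2, Ndufa5, Ndufa6, Ndufa7, Ndufa9, Ndufa12, Ndufs4, Ndufs6 and Ndufv3. Those of the membrane arm are Ndufa1, Ndufa3, Ndufa8, Ndufa10, Ndufa11, Ndufa13, Ndufs5, Ndufc1, Ndufc2 and the 10 genes Ndufb2 to Ndufb11. Ndufab1 is the mitochondrial acyl carrier protein, which also serves fatty acid synthesis, and Ndufa4 is named for complex I but has been placed in complex IV. The genes lie on 15 chromosomes and 2 of them, Ndufa1 and Ndufb11, are X-linked. In the GENCODE M21 annotation 21 genes share no exonic base with another gene, 14 share some with a gene on the opposite strand, and Ndufb2, Ndufb8 and Ndufb9 share some with a predicted gene on the same strand. The labels do not say whether counting used the strand.

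Promoters of 33 of the genes were found in the RefSeq table for mouse assembly GRCm38.p6, from 250 bases before to 50 bases after a gene's start. Those of Ndufa2, Ndufb9 and Ndufs1 were among the unmatched. Short motifs of 3 factors known for nuclear respiratory genes were searched on both strands. GCGCANGCG, the core of the binding site of nuclear respiratory factor 1, was present in the promoters of 8 of the 33 genes (24.2%) and of 1901 of 27025 genes of the table (7.03%). CCGGAAG, the core site of ETS factors, was present in 4 of the 33 (12.1%) and in 9.93% of all genes. AAGATGGCG, the core site of YY1, was present in 5 of the 33 (15.2%) and in 1.64% of all genes. The ETS and YY1 letters can share the bases AAG, and the first motif can match both strands at 1 place. A match describes letters and not a bound site. The windows below are 30 bases long, read 5′ to 3′ on the gene's strand with the motif or its reverse complement in capitals, and are shown because they belong to genes whose values are described further on: Ndufa8 and Ndufb4 for the first motif, Ndufs8 and Ndufb7 for the ETS core, and Ndufs7 and Ndufc1 for the YY1 core.
Ndufa8: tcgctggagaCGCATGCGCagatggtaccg
Ndufb4: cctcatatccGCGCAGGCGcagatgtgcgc
Ndufs8: ttaggctccgcCTTCCGGttgaaccgcatc
Ndufb7: gcctagatgacCCGGAAGacactgaagggg
Ndufs7: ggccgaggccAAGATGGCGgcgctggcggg
Ndufc1: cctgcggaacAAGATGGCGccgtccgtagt
These windows lie at chr2:36049328-36049357 (Ndufa8, minus strand), chr16:37654371-37654400 (Ndufb4, minus), chr19:3912741-3912770 (Ndufs8, minus), chr8:83566727-83566756 (Ndufb7, plus), chr10:80249463-80249492 (Ndufs7, plus) and chr3:51408914-51408943 (Ndufc1, minus).

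Summed over the 37 genes, the level was lowest in apical IHCs and highest in basal OHCs. It was 1260 TMM CPM in apical, 1527 in middle and 2328 in basal IHCs, and 1680 in apical, 1844 in middle and 3769 in basal OHCs. With all cells summed, both cell types had their highest level at the base. In the higher-numbered IHCs alone, the middle was higher than the base (2410 against 2199 CPM of total counts). Scaled to total counts alone, the basal level was 2244 CPM in IHCs and 2648 in OHCs, and the middle level of OHCs was 2412. The groups overlapped widely from cell to cell. The single cells' CPM ran from 54.6 to 4995 with a median of 1117 in apical IHCs, and from 21.8 to 6619 with a median of 2398 in basal OHCs. One basal OHC, replicate 8, held 49.7% of that group's complex I counts, whereas the largest share held by a cell of another group was 20.8%. Without that cell the basal OHC level was 1664 CPM of total counts, below that of middle OHCs. With the group's TMM factor kept it was 2368 TMM CPM, still above the 1844 of middle OHCs and the 2328 of basal IHCs.

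Within a group, the summed level differed between the 2 title-number series. In middle IHCs the median summed level was 2642 CPM in 13 higher-numbered cells and 402 in 21 lower-numbered cells. In middle OHCs it was 2934 in 7 and 413 in 16 cells. In apical OHCs it was 1725 in 12 and 305 in 9 cells, and in apical IHCs 1358 and 568 in 17 cells each. Basal IHCs had close medians in both series, 2317 in 7 and 2182 in 12 cells. Middle OHCs of the 2 series also differed in OHC markers, as given above, and the part of this in their levels was not tested. The plot of summed levels by cell shows the same order, and also that the cells of each series overlapped in every group except apical OHCs, whose lower-numbered cells reached 812 at most while the higher-numbered ones started at 973.

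**Figure D1:**
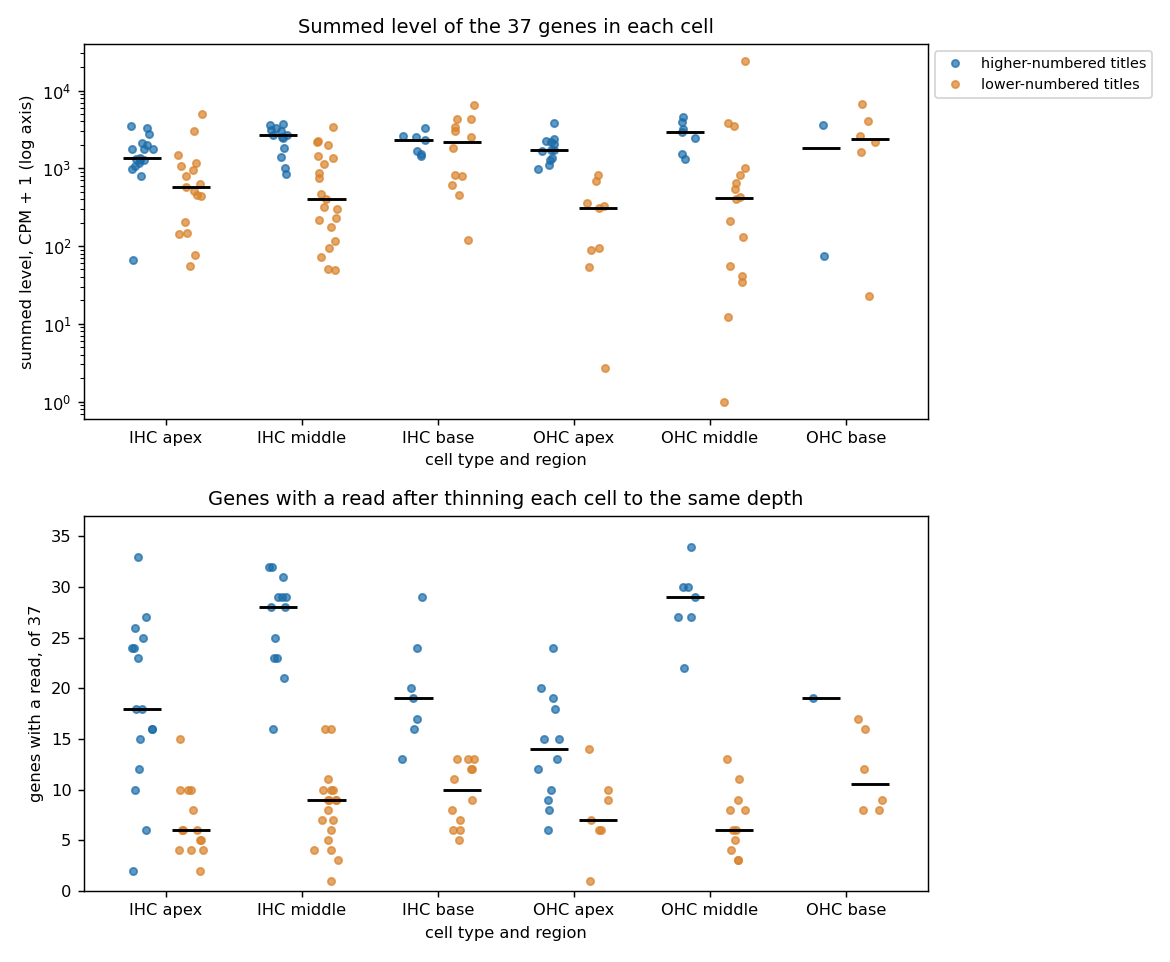
Top: summed CPM of the 37 genes plus 1 in each of the 139 cells, on a log axis, by cell type and region. Bottom: number of the 37 genes with a read after thinning each of 125 cells to 582635 counts. Blue points are cells of the higher-numbered series, orange points of the lower-numbered series, and bars are medians. In middle OHCs the medians of genes with a read are 29 and 6.

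At equal depth, more of the genes had a read per cell in the higher-numbered series in the 5 groups other than basal OHCs. When the 125 cells with at least 582635 counts were thinned to that depth, a median of 28 of the 37 genes had a read in higher-numbered middle IHCs and of 9 in lower-numbered ones. The medians were 29 and 6 in middle OHCs, 18 and 6 in apical IHCs, 14 and 7 in apical OHCs, and 19 and 10 in basal IHCs. Without thinning they were 32 and 12, 33 and 8, 20 and 12, 16.5 and 10, and 21 and 22, in the same order, so that basal IHCs differed between series only at equal depth. A single gene supplied most of a cell's complex I reads in the lower-numbered series. The leading gene's median share was 77.8% in lower-numbered and 22% in higher-numbered middle IHCs, and 81.4% and 22.3% in middle OHCs. The leading gene was Ndufa10 in 27 cells, Ndufb9 in 25, Ndufa4 in 12 and Ndufa1 in 11.

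The highest single value shows how far 1 gene can carry a cell. Replicate 13 of middle OHCs, a lower-numbered cell of 581304 counts, had a summed level of 23991 CPM. Ndufb2, a small subunit of the membrane arm, made up 99.3% of it, and only 8 of the 37 genes had a read. That cell held 98.6% of all Ndufb2 counts of middle OHCs. Its OHC markers summed to 77.4 CPM and its general hair cell markers to 6.88. Another middle OHC, of 71027 counts, had no read of any of the 37 genes. Its OHC markers summed to 211 CPM and its blood and immune markers to 23076.

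Gene by gene, higher-numbered cells exceeded lower-numbered cells for most of the complex. Averaged over the 5 groups other than basal OHCs, 30 of 37 genes were at least 2-fold higher and 2 were at least 2-fold lower in the higher-numbered series. Over all genes tested, 40.6% were at least 2-fold higher and 14% at least 2-fold lower. The median log2 difference was 1.94 for the 37 genes and 0.72 for all genes. The median over the 37 genes was 2.44 in apical, 1.89 in middle and 0.97 in basal IHCs, 3.30 in apical and 2.75 in middle OHCs, and -0.54 in basal OHCs, where 2 cells were of the higher-numbered series. Scaling to total counts alone moved the median of all genes to 1.47 and that of the complex I genes to 3.09. The higher-numbered series held from 2 of 8 cells (basal OHCs) to 12 of 21 (apical OHCs), so comparisons between groups are given within each series too.

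Levels were unequal among the subunits. Compared per kilobase of merged exons and averaged over the 6 groups, TMM CPM per kilobase was highest for Ndufb9 (443), a membrane arm subunit of the LYR family that binds the acyl carrier protein. Next came Ndufa1 (320), a small subunit of the membrane arm, Ndufa10 (113.6), a membrane arm subunit with a nucleoside kinase fold, Ndufa4 (112.3) and Ndufb10 (44.2). Without basal OHCs the order changed: the mean of the other 5 groups was 332 for Ndufa1, 293 for Ndufb9, 115.3 for Ndufa4, 52.3 for Ndufb10, 46.0 for Ndufs3 and 39.6 for Ndufa10. The lowest over all 6 groups were Ndufs4 (1.55), a peripheral arm subunit whose loss in mice is used as a model of Leigh syndrome, Ndufab1 (2.57), Ndufb5 (2.76), Ndufb7 (3.48) and Ndufb4 (5.69). Ndufb5, Ndufb7 and Ndufab1 have long merged exons of 4995, 4522 and 6883 bases, which lowers a value per kilobase where the reads come from shorter transcripts.

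**Figure D2:**
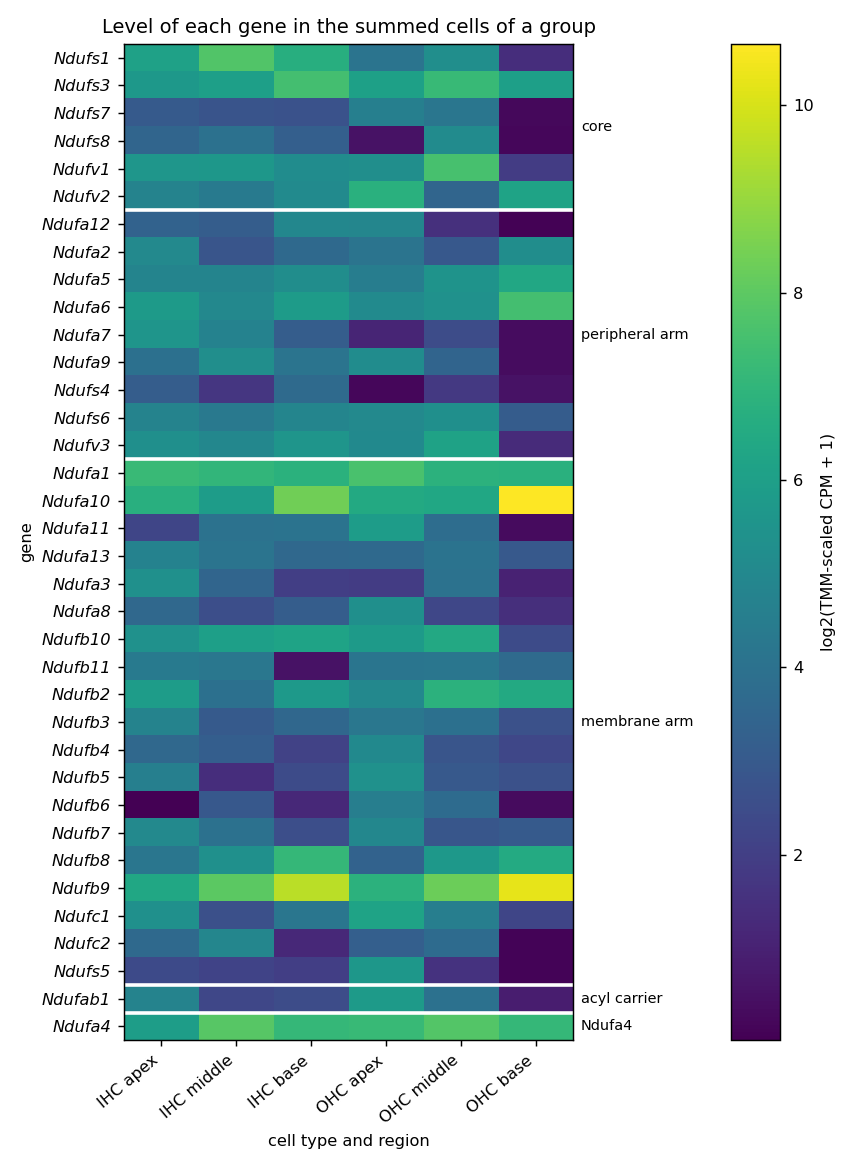
Level of 36 of the 37 genes in the summed cells of the 6 groups, as log2(TMM CPM + 1), ordered by role with white lines between roles. Ndufb9, Ndufa1, Ndufa10 and Ndufa4 are bright in every group, and Ndufa10 and Ndufb9 are brightest in basal OHCs.

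The genes seen in most cells were largely those of the highest level. After thinning, Ndufb9 had a read in 72% of the 125 cells, Ndufa4 in 65.6%, Ndufa1 and Ndufa10 in 62.4% each, and Ndufb8 in 56.8%. The fewest cells with a read were seen for Ndufs5 (14.4%), Ndufs4 (16.8%), Ndufb6 (18.4%), Ndufs8 (20.8%) and Ndufc2 (21.6%). Of the 5 genes of the lowest level per kilobase, only Ndufs4 was among these, and Ndufb7 had a read in 48.8% of cells. Ndufb6 was nearly absent from apical IHCs, where 1 of 34 cells had a read and the level was 0.013 TMM CPM, against 22.5 in apical OHCs, where 3 of 21 cells had one. Ndufa1 was the most even gene, with group levels between 110 and 192 TMM CPM, a 1.75-fold range. Within a group, the cells of both series nevertheless differed in it: the pooled level in middle IHCs was 247 CPM in higher-numbered and 5.05 in lower-numbered cells.

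The 7 core subunits summed to 219 TMM CPM in apical, 405 in middle and 403 in basal IHCs, and to 387 in apical, 485 in middle and 145 in basal OHCs. Ndufv1, which binds FMN and oxidises NADH, was between 35.4 and 49.1 TMM CPM in the IHC groups, 37.9 in apical and 187 in middle OHCs, and 2.79 in basal OHCs. Ndufv2, its iron-sulfur partner, was between 19.4 and 33.8 in IHCs and 109.1, 10.4 and 71.5 in apical, middle and basal OHCs, with 1 cell holding 99.5% of its counts in basal IHCs and 99.4% in basal OHCs. Ndufs3, a subunit of the quinone-binding module, was 50.4, 63.1 and 179 in apical, middle and basal IHCs and 65.3, 144 and 64.7 in OHCs. Ndufs7, an iron-sulfur subunit next to the quinone-binding site, was between 5.50 and 7.26 in IHCs, and 23.5, 17.4 and 0.20 in apical, middle and basal OHCs.

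The first comparison asked how OHCs differ from IHCs. Averaged over the 3 regions, the median log2 difference of the 37 genes was 0.03, and that of all genes was -0.59. At least 2-fold higher in OHCs was 1 of 37 genes, Ndufb6 (1.46), against 17.3% of all genes, and at least 2-fold lower were 8 of 37, against 39.3%. The median of the 37 genes changed sides with the cells used: it was -0.40 in the higher-numbered and -0.73 in the lower-numbered series, -0.31 as a mean of the cells, and -0.33 without replicate 2 of basal OHCs. All genes had medians of -0.84 and -0.22 in the 2 series. The higher-numbered series held only 2 basal OHCs, and its medians of the 37 genes were 0.10 (apex), 0.28 (middle) and -2.20 (base). In the lower-numbered series they were -0.46, -0.35 and -0.17. In the apex, 12 of 37 genes were at least 2-fold higher and 6 at least 2-fold lower in OHCs (28.6% and 32.4% of all genes). In the middle, 9 were higher and 6 lower (20.7% and 29.8% of all genes). At the base, 6 were higher and 19 lower (16.1% and 48.9% of all genes). The median of the 37 genes was 0.24 in the apex, 0.33 in the middle and -1.12 at the base.

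Of the 37 genes, 6 were at least 2-fold lower in OHCs both in summed cells and as a mean of the cells, with the same direction in both series: Ndufa7, Ndufs1, Ndufs8, Ndufa12, Ndufa3 and Ndufv3. Of all genes tested, 28.7% met this rule, in which the higher-numbered series had only 2 basal OHCs. None of the 37 met it in the other direction, against 7.65% of all genes. Ndufs1 and Ndufa7 had the largest differences.

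Ndufs1 encodes the largest core subunit, which carries several iron-sulfur clusters of the electron path. It lies on chromosome 1 (63143596 to 63176833, minus strand) and shares exonic bases with Ino80dos and Eef1b2 on the opposite strand. Its level was 67.0 TMM CPM in apical, 215 in middle and 101.3 in basal IHCs, and 16.1, 37.4 and 1.64 in the corresponding OHC groups. In middle IHCs the cells ran from 0 to 2717 CPM with a median of 7.77, and 25 of 34 had a read. In apical OHCs 7 of 21 cells had a read and 1 cell held 99.4% of the counts. All 3 regions were lower in OHCs, and the single cells overlapped. The difference was -3.25 pooled, -2.97 in the higher-numbered and -5.31 in the lower-numbered series, and between -4.57 (without replicate 1 of apical OHCs) and -2.84 (without replicate 10 of basal IHCs) when single cells were left out.

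Ndufa7, an accessory subunit of the peripheral arm, lies on chromosome 17 (33824572 to 33838317, plus strand) and shares no exonic base with another gene. It was 45.7, 25.6 and 7.84 TMM CPM in apical, middle and basal IHCs and 1.20, 4.54 and 0.30 in OHCs. A read was found in 16 of 34 apical IHCs and in 4 of 21 apical OHCs. Its level was highest at the apex and lowest at the base in IHCs, whereas in OHCs the middle was highest. The difference between cell types was -3.15 pooled, -3.42 in the higher-numbered and -2.56 in the lower-numbered series, and between -3.50 (without replicate 13 of apical OHCs) and -2.69 (without replicate 4 of basal IHCs) when single cells were left out.

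The other 4 genes had smaller differences. Ndufs8, a core iron-sulfur subunit, was lower by -1.61 on the log2 scale, but in the middle region it was higher in OHCs (34.2 against 14.7 TMM CPM). Ndufa3 differed by -1.29 and was likewise higher in middle OHCs (15.4 against 10.1). Ndufa12, a peripheral arm subunit, differed by -1.65 and by -0.50 without replicate 12 of basal IHCs, which held 94.3% of that group's Ndufa12 counts, and at the apex it was higher in OHCs by 1.56. Ndufv3 differed by -1.08 and by -0.91 without replicate 6 of basal IHCs. Its difference was -0.23 at the apex, 1.21 in the middle and -4.22 at the base, so that the lower mean rests on basal cells. Ndufs1 and Ndufa7 were lower in OHCs in all 3 regions, and these 4 genes were not.

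**Figure D3:**
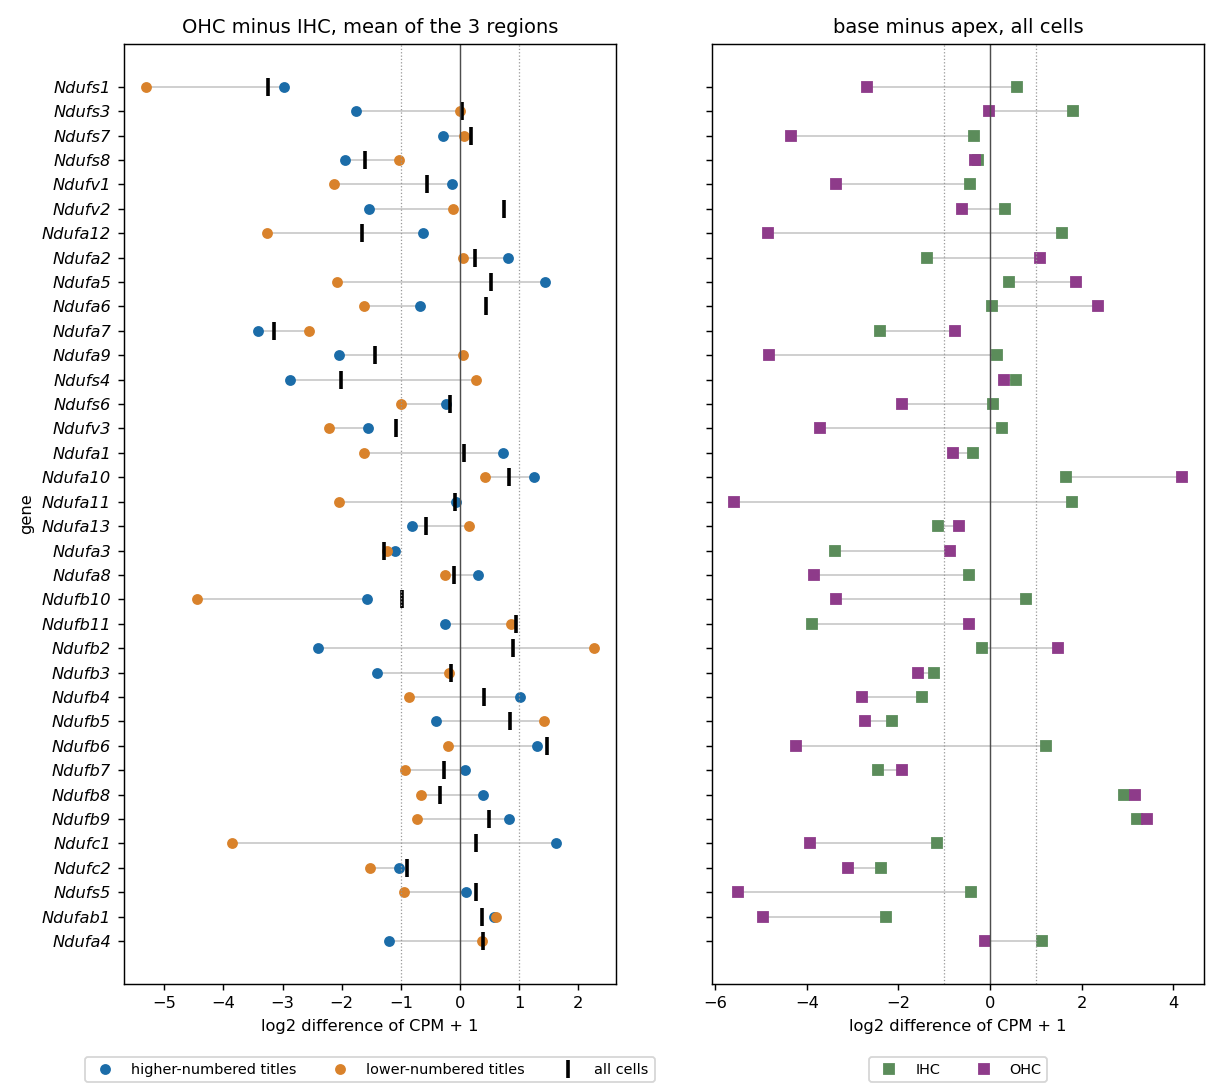
Left: log2 difference between OHCs and IHCs, averaged over 3 regions, for 36 of the 37 genes in all cells (black bar), in the higher-numbered series (blue) and in the lower-numbered series (orange). Right: log2 difference between base and apex in IHCs (green) and OHCs (purple), all cells. Dotted lines mark 2-fold. Ndufs1 and Ndufa7 lie beyond -2 in both series at the left, and Ndufb9 and Ndufb8 lie near 3 in both cell types at the right.

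The series gave opposite directions for 19 of the 37 genes and for 38.1% of all genes. Among these 19, the largest gaps between series were those of Ndufc1, Ndufb2, Ndufa5, Ndufs4 and Ndufa1. Ndufc1, a membrane arm subunit, differed between OHCs and IHCs by 1.63 in the higher-numbered and by -3.85 in the lower-numbered series. Ndufb2 differed by -2.41 and 2.26, and the positive value includes the middle OHC with 23827 CPM of this gene. Ndufa5, a peripheral arm subunit, differed by 1.44 and -2.08, Ndufs4 by -2.87 and 0.26, and Ndufa1 by 0.72 and -1.63. On the mean of the regions, each of these 5 genes was thus higher in OHCs in 1 series and lower in the other. The higher-numbered series held only 2 basal OHCs. In that series the differences at apex, middle and base were -0.54, 0.64 and 4.22 for Ndufa5 and 0.15, -0.18 and 2.19 for Ndufa1. They were 1.37, 2.14 and 1.37 for Ndufc1, 0.33, -2.81 and -4.74 for Ndufb2, and -3.83, 0.03 and -4.81 for Ndufs4. The positive means of Ndufa5 and Ndufa1 thus rest largely on the base.

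The second comparison was along the length of the cochlea. In IHCs the median difference between base and apex was -0.17 for the 37 genes and -0.02 for all genes. At least 2-fold higher at the base were 9 of 37 genes (26.5% of all genes), and at least 2-fold lower were 12 (31.5%). Between middle and apex, 9 were higher and 10 lower (28.7% and 23% of all genes). Few genes made up the higher summed level at the base: Ndufb9 alone was 6.38% of the complex I level in apical, 16.5% in middle and 32.4% in basal IHCs. Markers of blood and immune cells were also higher in basal than in apical IHCs (3421 against 405 TMM CPM). So were those of mesenchyme and bone (2072 against 453) and of neurons and glia (3879 against 1853). Those of supporting cells were lower at the base (1522 against 2717). The part of other cells' RNA in these differences was not tested.

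At least 2-fold higher at the base than at the apex in both cell types were 3 of the 37 genes, Ndufb9, Ndufb8 and Ndufa10, and 5.14% of all genes. Ndufa10 differed by 1.65 in IHCs, but by -5.68 in their higher-numbered series and 1.57 in the lower-numbered one. Ndufb9 and Ndufb8 were higher at the base in both series of both cell types. The higher-numbered series held only 2 basal OHCs, however, and replicate 1 of these had 134269 counts and no read of Ndufb8. Ndufb9 and Ndufb8 encode subunits of the distal part of the membrane arm. They lie on chromosomes 15 (58933756 to 58939488, plus strand) and 19 (44548572 to 44555440, minus strand). The predicted genes that share exonic bases with them on the same strand, Gm49356 and Gm20538, had 0 counts in every group.

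Ndufb9 was 80.5 TMM CPM (79.0 to 81.9) in apical, 252 (249 to 254) in middle and 755 (750 to 759) in basal IHCs. Single cells ran from 0 to 756 CPM with a median of 7.16 in apical IHCs, from 0 to 903 with a median of 4.20 in middle IHCs, and from 0.19 to 2596 with a median of 440 in basal IHCs. In OHCs it was 113.3 in apical, 310 in middle and 1231 in basal cells, with medians of 27.4, 0 and 121 CPM. Every basal cell of both types had a read of it, and cells of all regions overlapped. The base exceeded the apex by 3.21 on the log2 scale in IHCs and by 3.43 in OHCs.

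The series shared the direction of this difference but not its course. In higher-numbered IHCs pooled Ndufb9 was 123 CPM in apical, 484 in middle and 447 in basal cells, so that middle and base were close. In lower-numbered IHCs it was 11.5, 10.8 and 898 CPM, so that the base alone was high. The difference between base and apex was 1.54 and 6.18 in the 2 series of IHCs. In OHCs it was 3.34, with 2 higher-numbered basal cells, and 5.0. Leaving out single cells kept it between 3.0 and 3.68 in IHCs and between 2.31 (without replicate 8 of basal OHCs) and 3.96 in OHCs.

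Ndufb8 followed the same order at lower levels. It was 17.1, 40.5 and 136 TMM CPM in apical, middle and basal IHCs and 9.39, 51.1 and 91.9 in OHCs. A read was found in 15 of 34 apical and 17 of 19 basal IHCs, and in 11 of 21 apical and 6 of 8 basal OHCs. Pooled levels were 26.3, 78.5 and 68.05 CPM in higher-numbered IHCs and 2.15, 0.97 and 170 in lower-numbered ones. The base exceeded the apex by 2.92 in IHCs (1.03 and 5.85 in the 2 series). In OHCs it did so by 3.16 (4.06, with 2 basal cells, and 4.31). The differences were at least 2.41 and 2.79 when single cells were left out.

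**Figure D4:**
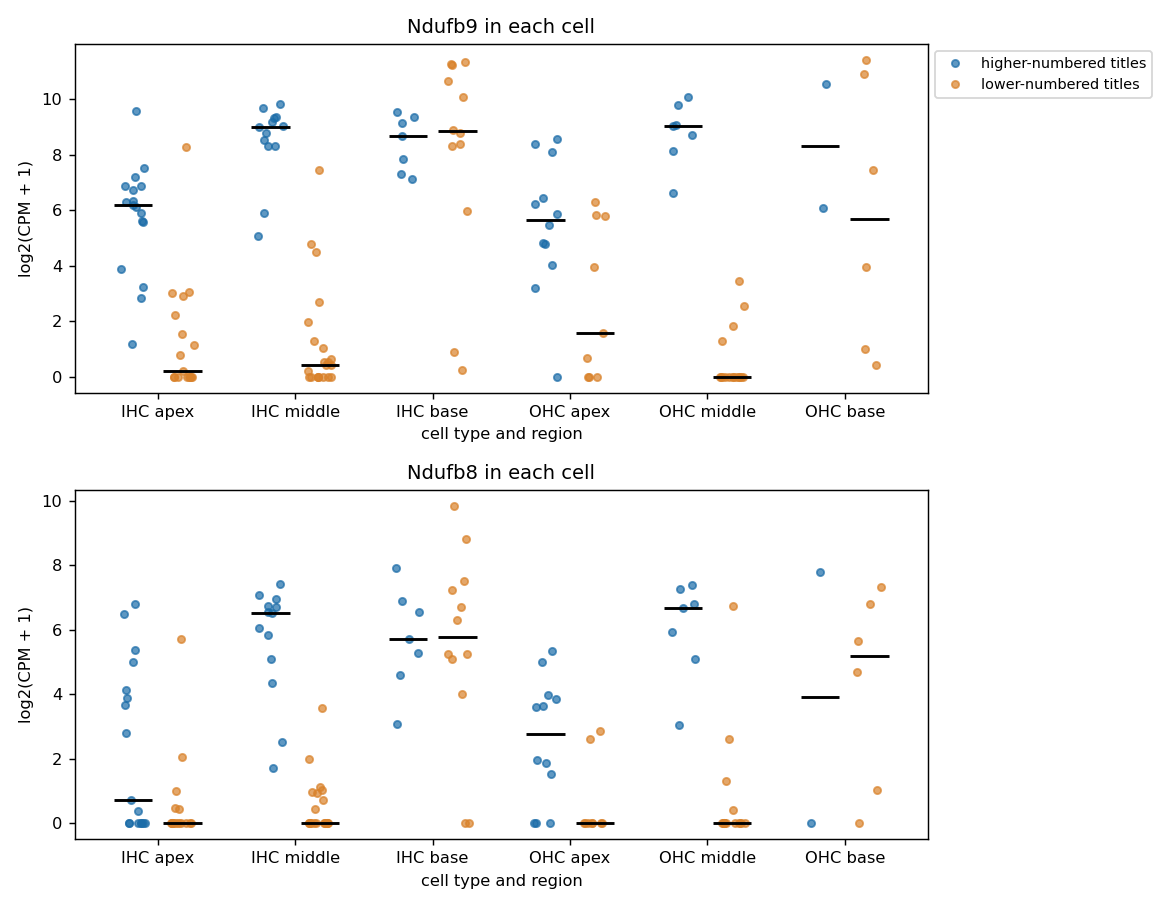
Ndufb9 (top) and Ndufb8 (bottom) in each of the 139 cells, as log2(CPM + 1), by cell type and region. Blue points are higher-numbered and orange points lower-numbered cells, and bars are medians. Most lower-numbered cells lie near 0 in apical and middle IHCs and in middle OHCs, and most are high in basal IHCs, where the median of Ndufb9 over both series is 440 CPM.

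By the rule used between cell types, 4 of the 37 genes had a higher level in basal than in apical IHCs, against 14.2% of all genes. Ndufa4 was among them. It was 60.8 TMM CPM in apical, 233 in middle and 134 in basal IHCs. It differed by 1.13 between base and apex, and by 0.96 without replicate 1 of basal IHCs.

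By the same rule 7 genes had lower levels in IHCs at the base, against 17.1% of all genes. Ndufa3 differed by -3.37 (40.3 against 2.98 TMM CPM), with -3.26 and -3.09 in the 2 series. Ndufb7 differed by -2.45 (31.7 against 4.98), with -2.41 and -1.75, and Ndufa7 by -2.40. Ndufc2 differed by -2.38, but by -0.35 in the lower-numbered series, and Ndufb4 by -1.49, but by -0.15. Ndufb5 differed by -2.14 with all cells and by -0.26 without replicate 4 of apical IHCs, which held 77.5% of the group's counts. Ndufc1 differed by -1.15, and by -0.45 without replicate 21 of apical IHCs. Ndufa3, Ndufb7, Ndufb4, Ndufc2 and Ndufa7 kept a difference of at least 2-fold whichever cell was left out, the smallest being -1.11 for Ndufb4. Without replicate 4 of basal IHCs the differences were -4.01 for Ndufa3, -3.76 for Ndufa7 and -2.94 for Ndufb4.

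In OHCs the median difference between base and apex was -1.91 for the 37 genes and -0.72 for all genes. At least 2-fold higher at the base were 7 of 37 genes (17.4% of all genes), and at least 2-fold lower were 20 (47.6%). Between middle and apex 11 were higher and 13 lower (31.3% of all genes each), with a median of 0.04. The basal value rests on 8 cells. In the lower-numbered series, with 6 basal cells, the median was 0.66, with 16 genes higher and 2 lower (19.3% and 14.7% of all genes). In the higher-numbered series, with 2 basal cells, it was -3.26. All genes had medians of 0 in the lower-numbered and -1.64 in the higher-numbered series. One cell held over 50% of the counts of 32 of the 37 genes in basal OHCs and of 65.2% of all genes there, and of 3 of the 37 genes and 43.7% of all genes in middle IHCs.

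Most of the complex I level of basal OHCs came from a pair of genes. General hair cell markers summed to 1923 TMM CPM in this group against 5885 in apical OHCs, and the part of other cells' RNA was not tested. Ndufa10 supplied 42.7% and Ndufb9 32.7% of the summed level. In basal OHCs 20 genes were under 5 TMM CPM, against 9 in basal IHCs and between 3 and 5 in the other groups. The share of all genes under that level is not given here. Ndufa10 was 1611 TMM CPM in basal OHCs and between 58.7 and 329 in the other groups. Its single basal OHCs ran from 0 to 3719 CPM with a median of 175, and 6 of 8 had a read. It differed from the apex by 4.19, by 3.05 without replicate 8, and by 3.10 in the lower-numbered and -1.30 in the higher-numbered series. In lower-numbered basal IHCs it was likewise high, at 510 CPM pooled against 0.72 in higher-numbered ones.

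At least 2-fold higher than at the apex, both pooled and as a mean of cells, and in the same direction in the lower-numbered series, were 6 of the 37 genes (13.8% of all genes). Lower by the same rule were 7 (26.9% of all genes). Many of these values depended on single cells. Ndufa6, a LYR-family subunit of the peripheral arm, differed from the apex by 2.35, but by 0.36 without replicate 3. Ndufb2 differed by 1.48 and by -0.26 without replicate 3, and Ndufa2 by 1.10 and by -0.60 without replicate 2. Among genes lower at the base, Ndufa12 differed by -4.84 and Ndufa8 by -3.84, and leaving out 1 apical cell left -3.75 and -3.26. Ndufab1 differed by -4.95, and by -2.32 without replicate 7 of apical OHCs. Ndufc1 differed by -3.93, and by -2.07 without replicate 1 of that group. Ndufb4 differed by -2.80, and by -1.5 without replicate 4 of that group. Ndufs7 differed by -4.35 and by -0.74 without replicate 10 of apical OHCs, and Ndufb5 by -2.73 and by -0.98 without replicate 7. In a pooled level, fewer cells expressing a gene and less RNA per cell cannot be told apart.

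Other genes of the pathway were described beside the 37. Of 20 assembly factors listed, which build complex I but do not stay in it, 17 were tested. Their median difference between OHCs and IHCs was -0.97, with 1 gene at least 2-fold higher (Dmac1, 1.04) and 8 lower, down to Tmem70 (-4.81), against 17.3% and 39.3% of all genes. Between basal and apical IHCs it was 0.88, with 8 higher, up to Ndufaf2 (6.13), and 3 lower, down to Ndufaf5 (-2.27), against 26.5% and 31.5% of all genes. Between basal and apical OHCs it was -0.34, with 3 higher and 5 lower, against 17.4% and 47.6% of all genes. For 37 nuclear genes of complexes II to V the medians were -0.12, 0.03 and -0.64. For the 6 tested genes of complex I encoded by mitochondrial DNA they were 0.60, -0.81 and 0.53. Between basal and apical OHCs the mitochondrial genes thus had a positive median and the 37 nuclear genes a negative one with all cells, while in the lower-numbered series both were positive (1.20 and 0.66).

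Across cells, the summed level of the 37 genes went with that of complexes II to V (Spearman correlation 0.611 over 139 cells, 0.822 over the 58 higher-numbered and 0.297 over the 81 lower-numbered cells). With the mitochondrial genes of complex I the correlation was 0.115 over all cells, and -0.119 and -0.073 in the 2 series. The number of the 37 genes with a read went with the number of all genes with a read (0.759). Among the 666 pairs of the 37 genes, the median correlation was 0.296 over all cells, 0.20 in the higher-numbered and 0.120 in the lower-numbered series. These values share each cell's library and depth and are given as a description. The order of the 37 genes by level per kilobase was shared in part between groups, with Spearman correlations across genes between 0.323 (apical IHCs and apical OHCs) and 0.730 (middle IHCs and middle OHCs).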

How the data were processed

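The labels describe single cells from mouse cochlea sequenced on an Illumina HiSeq 2500. The authors deposited 1 table of raw read counts per gene; the submitters' processing notes name Trimmomatic, HISAT2 and featureCounts of Subread 1.4.6 with GRCm38 (mm10), with settings not given in the sources used here. Counts are reads, without molecular identifiers, so intervals cover counting error only. Gene names came from GENCODE M21, matched on the identifier without version (55154 of 55335). Counts were summed per group and scaled with edgeR 4.0.16 (TMM factors only, R 4.3.3); genes under 5 CPM in every group were left out and 1 CPM was added before log2. With 1 sample a group no test was run. The steps were checked on simulated data, and known differences were recovered under counting noise alone. A limit on recovery was first set with the cells' own spread, was missed there, and was then applied to counting noise only. With the cells' own spread many genes with no true difference also passed 2-fold, so a 2-fold difference here is a description of these cells. The 37 genes, the marker and pathway lists and the naming rules were chosen with earlier results of these data known. Genes named for a difference passed 2-fold pooled and as a mean of cells, with 1 direction in each series of at least 5 cells in both groups. Between OHCs and IHCs only the lower-numbered series reached 5 cells in every group. Genes named there also kept their direction in the higher-numbered series. Genes named for levels or detection are the 5 highest and 5 lowest. Counts and sums cover all 37 genes, but 1 of them is not reported singly here. Alternatives were other scalings, pseudocounts, filters, cell subsets, thinned cells, and each series alone.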

Additional observations from a re-analysis of the deposited data

Results flagged for a closer look

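In basal OHCs, a group of 8 cells, the highest cell lay apart from the other 7 for 25 of the 37 genes and for 62.9% of all genes tested. Which cell it was differed by gene. A chance rate of about 1 in 20 groups holds for normally distributed values and does not apply to genes with reads in few cells, so the count is a description. Replicate 2 gave the highest value for Ndufa2 (215 CPM), Ndufb4 (30.6), Ndufc1 (29.4), Ndufa8 (13.7) and Ndufa3 (5.24). Replicate 5 did for Ndufv3 (27.4) and Ndufa7 (1.01, from 1 read), replicate 3 for Ndufb5 (11.7), and replicate 6 for Ndufs1 (11.3) and Ndufab1 (4.68). For Ndufa12 it was replicate 4, with 0.17 CPM from 1 read.

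The median difference of the 37 genes between basal and apical OHCs lay on opposite sides of 0 in the 2 title-number series, and the higher-numbered minus the lower-numbered value was -3.92. The median difference between OHCs and IHCs was positive in apex and middle and negative at the base, with 1.45 between the highest and the lowest region. Neither difference was tested.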

How the results depend on the processing

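Over the 30 named gene and comparison pairs, 401 of 450 alternative values kept their direction and stayed at least 2-fold, 41 came under 2-fold without turning and 8 turned. With the median of the cells in place of their sum, Ndufa3 was 0.026 between OHCs and IHCs, Ndufb5 was 0.31 between base and apex in IHCs and 0.12 in OHCs, and Ndufab1 was 0.19 in OHCs. Between base and apex of OHCs, the higher-numbered series gave -1.30 for Ndufa10, -2.27 for Ndufa6 and -3.38 for Ndufb2, and leaving out the deepest cell of each group gave -0.59 for Ndufb2.

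The median over the 37 genes between OHCs and IHCs (0.03) was -0.31 as a mean of cells, -0.024 as a median of cells, -0.13 with thinned cells, -0.28 without the deepest cells, -0.40 and -0.73 in the higher-numbered and lower-numbered series, -0.053 with total counts, 0.44 with median-of-ratios scaling, -0.20 and 0.11 with 0.1 and 5 CPM added, and 0.046 for genes of at least 20 CPM. It was -0.086 without the cell of the highest summed level and 0.011 with cells of at least 1000000 counts, both chosen after seeing the data. When single cells were left out it was -0.33 to 0.16. Median-of-ratios scaling moved the median of all genes from -0.59 to -0.26. The count of genes at least 2-fold higher (1) was 5 as a mean of cells, with thinned cells and in the higher-numbered series, 2 in the lower-numbered series and with 0.1 CPM added, 8 with median-of-ratios, 0 with 5 CPM added, and 0 to 3 when single cells were left out. The share of all genes higher (17.3%) was 17.96% as a mean of cells, 18.12% thinned, and 16.68% and 9.84% in the 2 series. That share was 20.35% with 0.1 CPM added, 23.18% with median-of-ratios and 8.5% with 5 CPM added. The count lower (8) was 3 as a median of cells, 14 and 15 in the 2 series, and 2 with 5 CPM added. The share of all genes lower (39.3%) was 6.94%, 46.3%, 34.9% and 21.04%, in the same order. The share of the 37 genes exceeded it in the lower-numbered series (40.5%) and as a median of cells (8.11%). With all cells summed the share of the 37 genes was smaller (21.6%), as in the higher-numbered series (37.8%) and with 5 CPM added (5.41%).

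Between base and apex of IHCs the median (-0.17) was -0.24 as a mean and 0.15 as a median of cells, 0.023 thinned, -0.31 without the deepest cells, -0.16 and -0.0098 in the 2 series, -0.27 with total counts, -0.028 with median-of-ratios, -0.21 with deeper cells and for genes of at least 20 CPM, -0.15 with 5 CPM added, and -0.39 to 0.058 when single cells were left out. As a median of cells, 4 genes were higher and 1 lower (4.44% and 6.53% of all genes). Between base and apex of OHCs the median (-1.91) was -0.92 as a mean and 0 as a median of cells, -1.48 thinned, -3.09 without the deepest cells, -3.26 and 0.66 in the 2 series, -2.32 with total counts, -1.23 with median-of-ratios, -1.92 without mitochondrial genes and for genes of at least 20 CPM, -1.94 with deeper cells, -2.04 and -1.39 with 0.1 and 5 CPM added, and -2.92 to -1.01 when single cells were left out. The lower-numbered series gave 16 genes higher and 2 lower (19.3% and 14.7% of all genes). The median of cells gave 5 higher and 1 lower (4.98% and 5.49% of all genes). The cause of these shifts was not tested. No paired analysis was possible because no test was run; some title numbers recur across groups, and the labels do not say what they stand for. Summed depth was lowest in basal OHCs (28574809 counts), and the median depth per cell in middle OHCs (1871530).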
